A study of Mus musculus with 2 samples.

Results

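The BCL-2 family is the set of proteins that decide whether the outer mitochondrial membrane is opened in a stressed cell. Its 10 listed genes were taken by name from an array comparison of Runx2-deficient and wild-type plasmacytoid dendritic cells (pDCs, the dendritic cells that make large amounts of type I interferon). Each gene was read from the probe set whose single annotated symbol is that gene. Of the 10, 9 could be read, out of 19938 genes with a probe set of their own. They were 3 pro-survival genes (Bcl2, Bcl2l1 and Mcl1), 1 effector gene (Bak1) and 5 BH3-only genes (Bcl2l11, Bid, Bad, Bbc3 and Pmaip1). The effector gene Bax has no probe set under its symbol alone in the annotation used and was not analysed here, so the effector class rests on Bak1.

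The first group was 1 sample of Runx2-/- pDCs and the second 1 sample of wild-type pDCs. Both were sorted from bone marrow of chimeric mice, in which transplanted fetal liver cells of that genotype had made new blood cells for 2 months. The gate was CD11b-negative, BST2-positive and B220-positive, and labelling for the Affymetrix Mouse Gene 1.0 ST array started from 250 ng of RNA. The labels name neither the number of mice behind a sample, their age or strain, nor how much of the host's own marrow was left. With 1 array per genotype there is no replicate spread, no standard error and no p-value, and every difference here is between these 2 samples. In sorted bulk RNA, less transcript per cell and fewer cells that carry the transcript cannot be told apart.

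Proteins of this family share short BCL-2 homology (BH) segments. Pro-survival proteins hold the effectors BAX and BAK in check, BH3-only proteins are made or modified on stress and bind the pro-survival proteins, and freed effectors form pores that let cytochrome c out to switch on caspases. Dendritic cells depend on these proteins for their lifespan, and mouse pDCs are known to rely on BCL-2 itself.

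The 2 arrays were closely scaled: over 35556 probe sets the median intensity was 181.7 units on the Runx2-deficient array and 182.9 units on the wild-type array. Differences are given as the log2 intensity of the Runx2-deficient sample minus that of the wild-type sample. A gene is called bright here where 1 array or both put it at or above that array's median over named genes, a log2 level of 7.54 for the Runx2-deficient and 7.61 for the wild-type array, and 7 of the 9 members were bright. Siglech, Tcf4 and Irf8, which mark pDCs, were at 12028, 8863 and 11055 units in the Runx2-deficient sample, against 11436, 9136 and 10803 units in the wild-type sample. All 12 listed pDC markers were bright, and 3 of them were lower by 1.5-fold or more with Runx2 deleted. Runx2 itself was not analysed here, so the deleted gene gives no check of the genotype. The Y-linked genes Eif2s3y, Uty and Kdm5d were at 31.6, 46.4 and 79.7 units in the Runx2-deficient sample, against 687, 357 and 383 units in the wild-type sample. The RNA of the silenced X chromosome, Xist, was bright on both arrays, at 11234 units in the Runx2-deficient sample, against 8553 units in the wild-type sample. Genotype and these differences in sex-linked transcripts cannot be told apart here.

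Sequence before the transcription start is shown for the pro-survival gene and the BH3-only gene with the largest differences, Bcl2 and Bcl2l11, and for the effector gene Bak1. Each stretch is 250 bases, ends at the base before the RefSeq start in build GRCm38.p6 and is written 5′ to 3′ on the gene's strand. Capitals mark matches to TGTGGT or TGCGGT, forms of the motif that RUNX proteins bind, or to their reverse complements.
Bcl2, chr1:106714291-106714540, minus strand: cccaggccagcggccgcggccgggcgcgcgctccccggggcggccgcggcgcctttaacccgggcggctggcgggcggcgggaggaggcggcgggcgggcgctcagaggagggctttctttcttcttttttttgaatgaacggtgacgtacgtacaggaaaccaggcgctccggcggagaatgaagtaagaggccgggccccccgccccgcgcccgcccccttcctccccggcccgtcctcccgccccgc
Bcl2l11, chr2:128125788-128126037, plus strand: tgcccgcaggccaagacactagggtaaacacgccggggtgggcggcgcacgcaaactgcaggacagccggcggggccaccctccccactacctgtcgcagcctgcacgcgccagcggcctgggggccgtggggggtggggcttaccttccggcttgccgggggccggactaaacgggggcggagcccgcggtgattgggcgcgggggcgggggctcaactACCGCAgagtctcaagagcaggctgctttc
Bak1, chr17:27028628-27028877, minus strand: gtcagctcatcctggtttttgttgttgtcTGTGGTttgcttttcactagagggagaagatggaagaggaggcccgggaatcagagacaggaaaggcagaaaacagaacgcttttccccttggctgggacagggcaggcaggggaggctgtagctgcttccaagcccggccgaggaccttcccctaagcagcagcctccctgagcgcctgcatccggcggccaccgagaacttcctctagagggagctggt
The Bcl2 stretch was 74.8% G and C and held no match, that of Bcl2l11 was 72.0% G and C and held 1, on the reverse strand, and that of Bak1 was 58.4% G and C and held 1, on the forward strand. Windows of 300 bases, which add the first 50 transcribed bases, were searched on both strands for the listed genes found in the RefSeq table, Bax included and Pmaip1 not. Of 15 windows of these 9 genes (some have more than 1 start), 3 held a match. They were the 1 window of Bak1 and both windows of Bcl2l11, the first of which held a further match within the transcribed bases. Across all 32851 windows in the table, 22.4% held a match, against 3 of 15 here. A match is a run of letters and not a binding site, and the lack of one says nothing about sequence outside the window.

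Pro-survival genes were lower or level in the Runx2-deficient sample. Bcl2, which encodes the founding survival protein of the family, was at 459 intensity units in the Runx2-deficient sample, against 906 units in the wild-type sample. The Runx2-deficient level was thus the lower one, by -0.98 on the log2 scale, or 1.97-fold, just short of 2-fold. Of 10337 bright named genes, 2.05% lay at least as far from 0 in either direction, and Bcl2 was number 127 counted from the most negative difference. The central 95% of bright genes ran from -0.72 to 0.63, and Bcl2 was the only one of the 9 members outside that range.

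Markers of other blood cells moved on the same arrays, and their part in the Bcl2 difference was not tested. All 13 granulocyte markers were below 0 (median -2.04), and their summed intensity was 2614 units in the Runx2-deficient sample, against 18498 units in the wild-type sample. All 9 measured erythroid markers were below 0 (median -0.68), summing to 1006 units in the Runx2-deficient sample, against 2591 units in the wild-type sample. The 4 bright ones had a median of -1.85, but all 4 reached the brightness level on the wild-type array only, which by itself favours negative differences. The 6 measured platelet markers were all below 0 too (median -0.61), summing to 1295 units in the Runx2-deficient sample, against 6659 units in the wild-type sample. Without Ppbp, the brightest of them, the sums were 1139 units in the Runx2-deficient sample and 1820 units in the wild-type sample. Lymphocytes are cells in which Bcl2 is well known to be expressed. Their T cell markers divided evenly around 0, and most of their B cell markers were below 0. The 8 measured T cell markers summed to 2290 units in the Runx2-deficient sample and 1974 units in the wild-type sample, and without Cd28, the brightest, to 1209 units in the Runx2-deficient sample and 1139 units in the wild-type sample. Of these 8 T cell markers, 4 were below 0 and 4 above 0. Cd3d (-0.11), Cd3e (-0.34) and Cd3g (-0.03) were below 0 and dim on both arrays. Cd6 (0.47), Cd28 (0.37) and Cd5 (0.20) were above 0 and bright. Bcl11b (-0.12) was below 0 and bright, and Trat1 (0.07) was above 0 and dim. The 10 measured B cell markers summed to 3545 units in the Runx2-deficient sample, against 3443 units in the wild-type sample. Cd79b alone sets that direction, since the other 9 summed to 1148 units in the Runx2-deficient sample, against 1443 units in the wild-type sample. Of the 10, 8 were below 0 (median -0.20, and -0.32 over the 4 bright ones, of which Igll1 was bright on the wild-type array only). Pax5 (-0.22) and Ms4a1 (0.52), on opposite sides of 0, were dim on both arrays. The 9 measured monocyte markers had a median of -0.18, with 6 below 0 and 3 above 0, from Lyz2 at -1.59 to Csf1r at 0.64. The 10 conventional dendritic cell markers had a median of 0.03, from -2.43 to 1.35. The 12 pDC markers themselves had a median of -0.18, with 8 below 0 and none 2-fold apart. Lag3 (-0.74), Spib (-0.69) and Irf7 (-0.68) were those lower by 1.5-fold or more, 25% of the list where the share over all named genes was 2.22%. No marker was at 0, since RMA values do not reach it, and the lowest intensity on either array was 15.3 units.

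Bcl2l1, which encodes the survival protein BCL-XL, had 208 units in the Runx2-deficient sample and 263 units in the wild-type sample. Its difference of -0.34 (1.26-fold lower) has the sign of Bcl2 at a smaller size, and 22.4% of bright genes lay at least as far from 0. Mcl1 encodes a short-lived survival protein that many blood cells need. It read 1527 units in the Runx2-deficient sample and 1537 units in the wild-type sample, a difference of -0.01. The 3 pro-survival genes thus ran from a nearly 2-fold gap to no gap, and their median difference of -0.34 is the value of Bcl2l1.

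Bak1, the gene of the pore-forming effector BAK, was at 749 units in the Runx2-deficient sample and 900 units in the wild-type sample. The difference of -0.27, or 1.20-fold lower with Runx2 deleted, was met or passed in size by 32.7% of bright genes.

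BH3-only genes were level or slightly higher in the Runx2-deficient sample, with 4 of 5 above 0 and a median difference of 0.07. Bcl2l11, which encodes BIM, a BH3-only protein that binds all the main survival proteins and limits blood cell numbers, had 336 units in the Runx2-deficient sample, against 274 units in the wild-type sample. At 0.29 (1.22-fold higher) it had the largest positive difference of the 9 members, and 28.5% of bright genes lay at least as far from 0. The remaining BH3-only genes lay between -0.06 and 0.12.

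Bid, whose product is cut by caspase-8 and carries death receptor signals to mitochondria, had 865 units in the Runx2-deficient sample and 822 units in the wild-type sample (0.07). Bad, whose product is held inactive by phosphorylation under growth factor signalling, had 254 units in the Runx2-deficient sample, against 266 units in the wild-type sample (-0.06), and was the 1 BH3-only gene below 0. The p53 targets of this class were dim on both arrays. Bbc3, which encodes PUMA, had 153 units in the Runx2-deficient sample and 141 units in the wild-type sample (0.12), and Pmaip1, which encodes NOXA, had 186 units in the Runx2-deficient sample, against 180 units in the wild-type sample (0.04). Neither reached the brightness level on an array, though Pmaip1 fell only just short on the Runx2-deficient array (log2 level 7.54 for both, as rounded). The robust multi-array average (RMA) used for these values compresses differences of dim probe sets, so a gap in either gene could be understated.

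**Figure D1:**
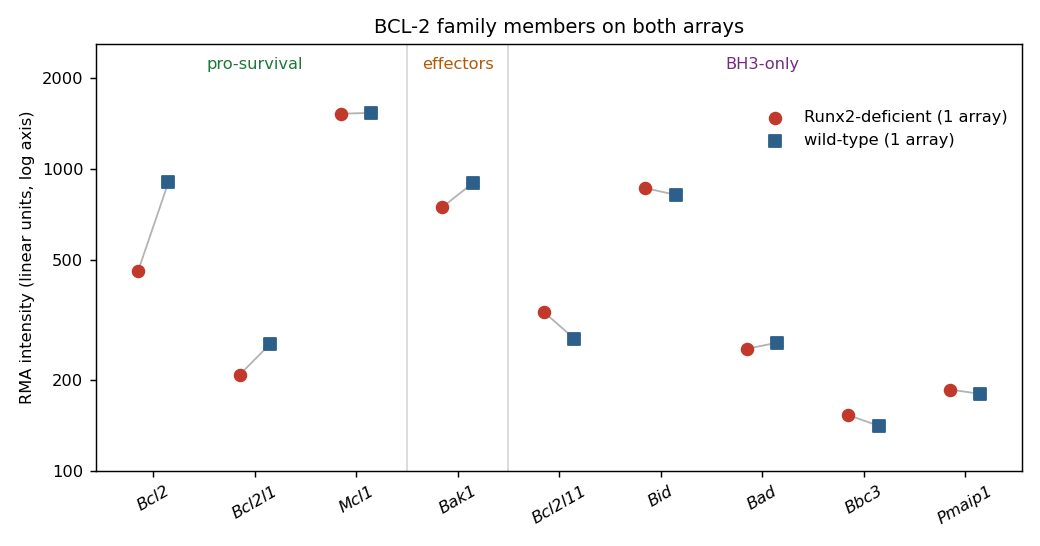
RMA intensity (linear units on a log axis) of the 9 measured members, by class; each point is 1 array, Runx2-deficient (circle) left of wild-type (square), and no error bar can be drawn. The line of Bcl2, between 459 and 906 units, is the steepest, while Mcl1, Bid, Bad and Pmaip1 are nearly flat.

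None of the 9 members differed by 2-fold, where 0.647% of all 19938 named genes were at least 2-fold lower and 0.436% at least 2-fold higher in the Runx2-deficient sample. At 1.5-fold, 1 of 9 members was lower, Bcl2, and 0 were higher. The shares over all named genes at 1.5-fold were 2.22% lower and 1.73% higher, and the members' count is a single gene. The median difference over the 9 members was -0.01, beside -0.03 over all named genes. Within the classes, the medians of -0.34 (pro-survival, 3 genes), -0.27 (effector, 1 gene) and 0.07 (BH3-only, 5 genes) stand beside that same -0.03.

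The classes were also set against each other gene by gene, as the difference of a pro-survival gene minus that of a BH3-only gene. Of the 15 pairs, 14 were below 0, from -1.27 to 0.05, and these pairs share their genes, so they are not independent. Bcl2 against Bcl2l11 had the largest gap, -1.27, a 2.42-fold smaller ratio of Bcl2 to Bcl2l11 intensity on the Runx2-deficient array than on the wild-type one. All 4 pairs beyond 2-fold held Bcl2, with Bcl2l11, Bbc3 (-1.10), Bid (-1.05) or Pmaip1 (-1.02). Of these partners, Bbc3 and Pmaip1 were dim on both arrays. For Mcl1 the pairs ran from -0.30 with Bcl2l11 to 0.05 with Bad. The low side of this comparison therefore sat in Bcl2 and, to a smaller extent, Bcl2l1.

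**Figure D2:**
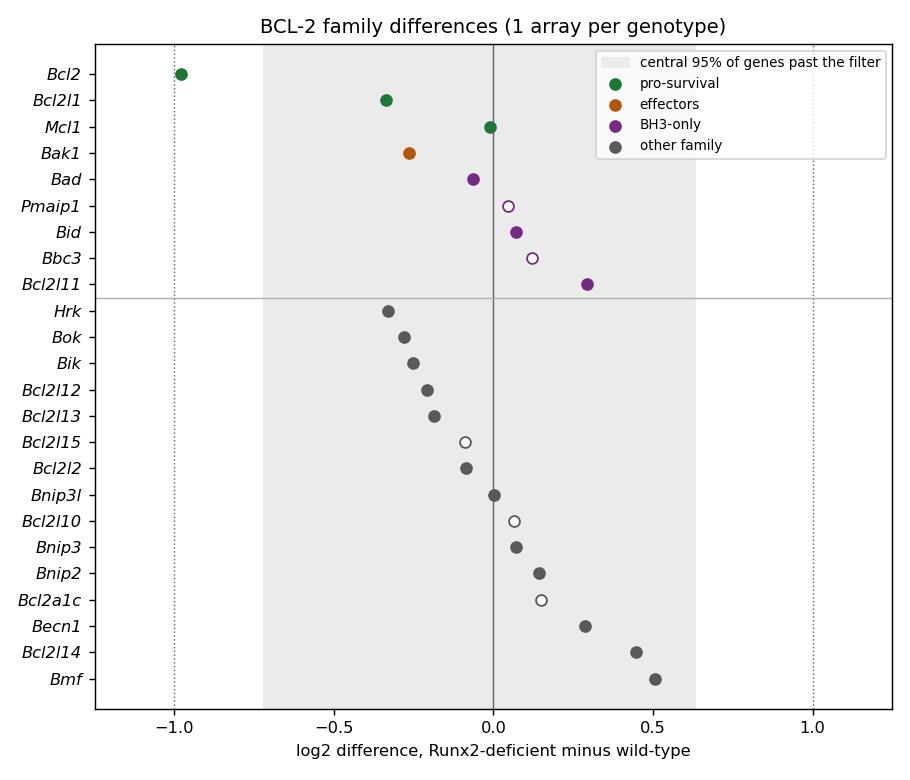
Log2 difference, Runx2-deficient minus wild-type, of the 9 members (above the line) and of 15 other family genes (below it); open circles mark genes below the brightness level on both arrays, dotted lines mark 2-fold and the grey band holds the central 95% of bright named genes, -0.72 to 0.63. Bcl2, at -0.98, is the only family gene outside the band.

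Of 18 further family genes, 15 could be read, with 7 below 0, 8 above 0, a median of 0.00 and none 1.5-fold apart. Bmf, a BH3-only gene whose product is tethered to the cytoskeleton, was furthest from 0, at 486 units in the Runx2-deficient sample and 343 units in the wild-type sample (0.50). Bcl2l14 (0.45) and Becn1, the autophagy gene whose product binds BCL-2 through a BH3 segment (0.29), were the next highest. The BH3-only genes Hrk (-0.33) and Bik (-0.25) and the effector-like Bok (-0.28) were on the other side. BH3-only genes outside the 9 members therefore lay in both directions. Survival genes of the Bcl2a1 cluster are near-identical copies, and 3 probe sets carry 4 of their symbols at once. These read 108, 102 and 155 units in the Runx2-deficient sample, against 96.1, 102 and 147 units in the wild-type sample, all below the brightness level, and single copies cannot be told apart on them. A further probe set, annotated to Bcl2a1c alone, read 33.4 units in the Runx2-deficient sample and 30.1 units in the wild-type sample. At 0.15, Bcl2a1c was dim on both arrays too. Bcl2l2, which encodes the survival protein BCL-W, was at -0.09.

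**Figure D3:**
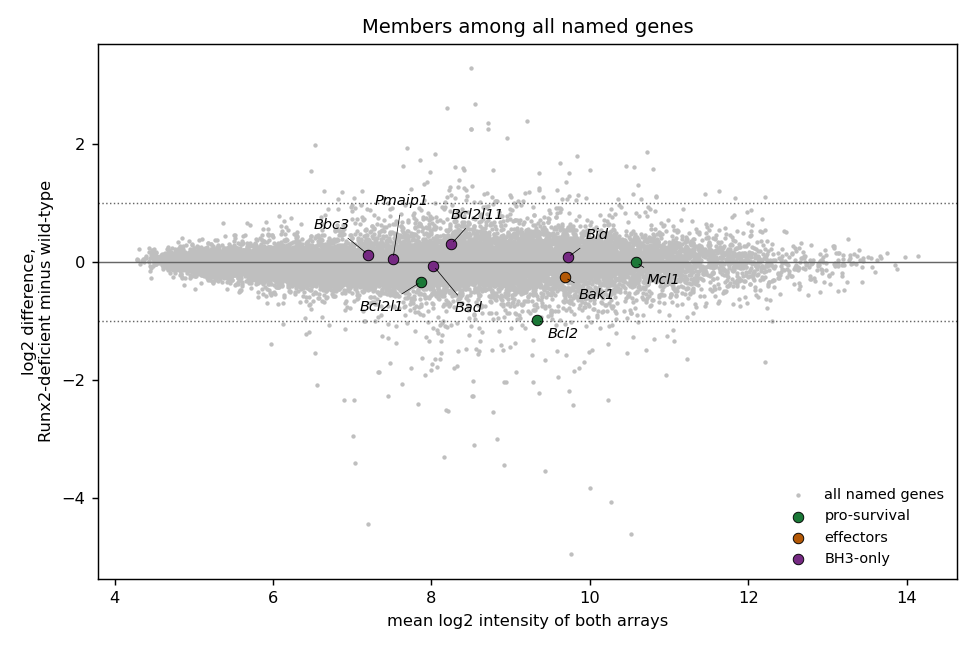
Log2 difference, Runx2-deficient minus wild-type, against the mean log2 intensity of both arrays for all 19938 named genes (grey), with the 9 members coloured by class and 2-fold as dotted lines. Bcl2 lies at the 2-fold line below the main cloud and the other 8 members lie inside the cloud.

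Genes that act around the family were described by 7 further lists, with the same medians read against -0.03 over all named genes. Together with the 15 other family genes they made 104 measured genes, of which 0 were 2-fold apart, 3 were at least 1.5-fold higher (2.88%) and 1 was at least 1.5-fold lower (0.962%). Over all named genes these shares were 1.73% and 2.22%. The 4 genes were Casp4, Tnfsf10 and Bcl6 on the high side and Itpr3 on the low side.

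Of the 14 measured apoptosome and caspase genes, 10 were above 0, with a median of 0.08. Casp4, which encodes caspase-11, an inflammatory caspase that senses bacterial lipopolysaccharide and not an executioner of apoptosis, was at 249 units in the Runx2-deficient sample and 132 units in the wild-type sample (0.92). Dffb, the nuclease that cuts DNA in dying cells (0.45), and Apaf1, the scaffold of the apoptosome (0.27), were next, and Casp1, the inflammasome caspase, was lowest at -0.44. Caspase inhibitors and their antagonists had 5 of 8 genes above 0 and a median of 0.14. The ubiquitin ligase gene Birc2 was at 0.57 and the direct caspase inhibitor gene Xiap at 0.28, while Htra2, whose product displaces such inhibitors, was at -0.34. A second probe set of Birc2 read 0.05, so its value depends on the probe set.

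In the death receptor route, 5 of 8 genes were above 0 and the median was 0.05. Tnfsf10, which encodes the death ligand TRAIL and is induced by interferon, had 437 units in the Runx2-deficient sample, against 247 units in the wild-type sample (0.82). Cyld, a deubiquitinase of this route, was at 0.37, and the adaptor gene Tradd and the receptor gene Tnfrsf1a were at -0.45 and -0.33. The p53 route had 7 of 10 genes above 0 and a median of 0.11. Mdm4 and Mdm2, which restrain p53, were at 0.29 and 0.16, Phlda3 was at 0.26 and the stress gene Sesn2 at -0.46. Its BH3-only targets Bbc3 and Pmaip1 lay inside this span, at 0.12 and 0.04.

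Transcriptional regulators of the family divided evenly, with 9 genes below 0 and 9 above 0 and a median of 0.00. Bcl6, a repressor that is reported to lower BCL2 in B cells, was at 520 units in the Runx2-deficient sample and 298 units in the wild-type sample (0.80). Ddit3 (CHOP), an activator of Bcl2l11 under endoplasmic reticulum stress, was at 0.49 and Creb1, an activator of Bcl2, at 0.28. The NF-kappaB subunit gene Rela (-0.50), E2f1 (-0.48) and Foxo1, a member of the FOXO group that can induce Bcl2l11 (-0.27), were on the low side. Genes for the turnover and phosphorylation of family proteins had 12 of 20 below 0 and a median of -0.09. Fbxw7, which marks MCL-1 for destruction, was at 0.44 on its brighter probe set and 0.09 on its other one. Ywhag, one of the 14-3-3 proteins that sequester phosphorylated BAD (-0.44), Akt1, a kinase of BAD (-0.42), and Pim3 (-0.37) were lowest.

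Mitochondrial and endoplasmic reticulum partners had 8 of 11 genes above 0 and a median of 0.03. Itpr3, which encodes an inositol trisphosphate receptor of the family of calcium channels that BCL-2 binds, had 732 units in the Runx2-deficient sample, against 1213 units in the wild-type sample (-0.73). Its relative Itpr2 went the other way, at 0.38, and the channel gene Vdac3 was at 0.32. Mtch2, the mitochondrial receptor for cut BID, was at 0.22.

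**Figure D4:**
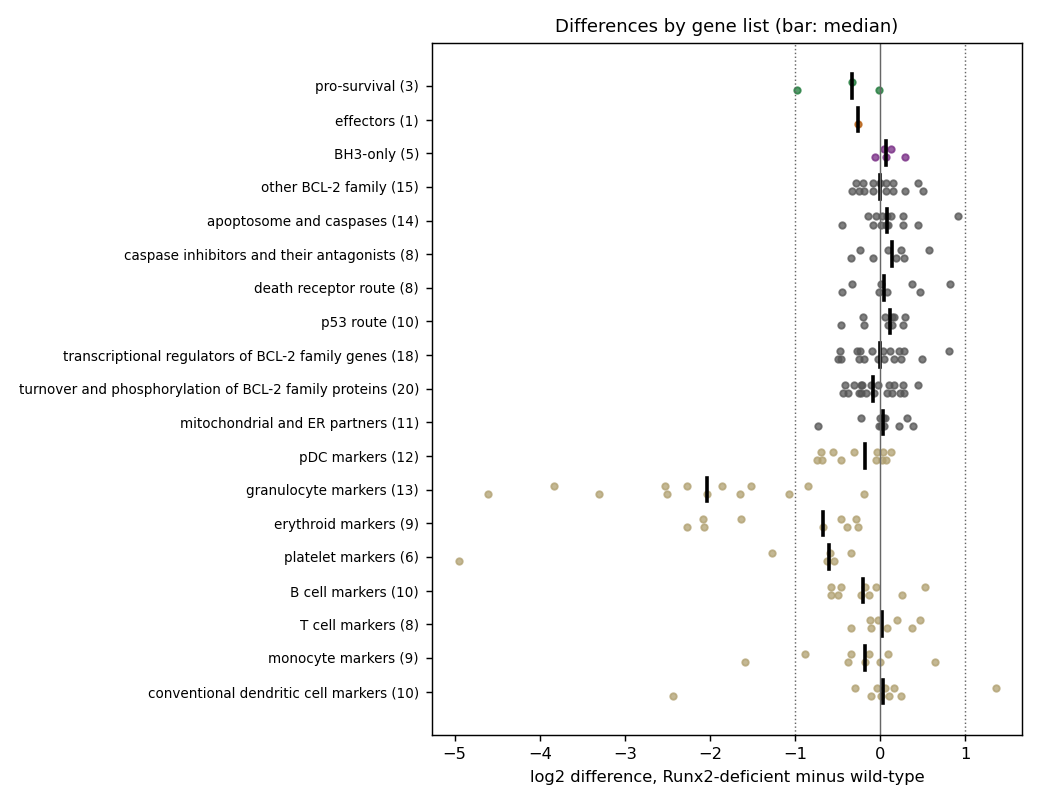
Log2 difference, Runx2-deficient minus wild-type, of each measured gene (points) by list, with the list's median (bar), its number of measured genes in brackets and 2-fold as dotted lines; member classes are coloured, lists around the family are dark grey and cell type markers are tan. Lists around the family centre near 0, while the granulocyte markers reach from -4.61 to -0.19.

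The named genes whose 2 values lay nearest to those of Bcl2 were Fam234b, Nrm and Med16, at 450, 450 and 455 units in the Runx2-deficient sample, against 906, 892 and 883 units in the wild-type sample. Likeness here is the Euclidean distance between 2 pairs of log2 values, 0.03 for Fam234b and 0.04 for both others. Over 2 arrays this says only that the pairs of values are close.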

How the data were processed

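Intensities of 2 Affymetrix Mouse Gene 1.0 ST arrays were used, 1 per genotype. RMA was the authors' method, per the submitters' processing notes (background correction, equalised distributions, probe summaries). The values are deposited as linear intensities, from 15.3 to 20364, although RMA normally reports log2 values. Software, version and which arrays were normalised together: not given in the sources used here. Each value was taken to log2 and wild-type subtracted, so a fold is a ratio of intensities. Of 35556 probe sets, 21789 have 1 symbol in the platform annotation, 1621 several and 12146 none, and only the first were named. For genes with several probe sets, the one with the highest mean was used. Each member had 1. No test was possible, and the number of arrays limits precision. Members and lists were chosen with earlier results of these data known. Genes named are the 9 measured members, up to 3 bright genes per direction of each list and the 3 genes nearest Bcl2. Markers of sort, lineage and sex, the survival gene Bcl2l2 and the Bcl2a1 cluster are named too. Promoter windows are from RefSeq, GRCm38.p6. The protein motif search planned at the outset was not run, as no protein table was used here. Alternatives were median centring, loess (span 0.3), averaging all probe sets of a gene, 16 units added before log2, a 1.5-fold threshold and brightness filters. The subtraction, gene choice and loess steps were tested on simulated data. Tools were numpy 2.4.6 and pandas 2.3.3 under Python 3.11.15, statsmodels 0.14.6 for loess, and matplotlib 3.10.9 for figures.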

Additional observations from a re-analysis of the deposited data

How the results depend on the processing

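All 36 alternative values of the 9 member differences and all 12 of the class medians stayed within 0.1 of the reported log2 value. All 48 of the medians of the 8 lists around the family did so too. Part of this was fixed in advance. Each member has 1 probe set, so averaging probe sets could not change its value. Median centring shifted every gene by the same 0.010, so it could not move any value past 0.1. Bcl2 ran from -0.99 to -0.96, Bcl2l1 from -0.34 to -0.27, Bak1 from -0.29 to -0.26 and Bcl2l11 from 0.28 to 0.33, and the largest shift of the median of all named genes was 0.033, under loess. With a 1.5-fold threshold in place of 2-fold, the count of lower members was 1 in place of 0, and in the 8 lists around the family it was 1 lower and 3 higher in place of 0 and 0; a lower threshold admits more genes by its construction. These member and list counts did not change under the other alternatives. The count of gene pairs was not repeated under them. With 16 units added, Bcl2 was at -0.956 and Pmaip1 at 0.041, which puts that pair just short of 2-fold. The brightness filters only remove genes, so a count of 0 could not change under them. Of 48 values of cell type marker medians, 6 moved by more than 0.1, all under a brightness filter that leaves fewer genes. With the median as the filter, granulocyte, erythroid, B cell and T cell medians were -2.15, -1.85, -0.32 and 0.28. With the lower quartile those of B and T cells were -0.34 and 0.20. A gene can pass on 1 array alone, and all erythroid markers kept under the median filter passed on the wild-type array only. Some of the granulocyte and B cell markers kept did so too, which by itself favours negative medians. The marker sums without the brightest marker were chosen after seeing the data. No paired analysis was possible because each genotype has 1 array. An array with 1 value per gene carries no detection call here, so whether the dim Bbc3 and Pmaip1 stand above background is unknown.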
